A study of Mus musculus with 20 samples.

Results

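Immunoglobulin RNA was followed in the brain of mice through 158 genes: the constant region and variable segment genes of the antibody heavy, kappa and lambda chains, and Jchain. They were chosen by symbol and by a sum of at least 100 reads over all 20 libraries, out of 362 genes that carry such a symbol and 55487 genes counted in all. The 20 libraries came from NMRI mice, an outbred stock, all of which had undergone olfactory bulbectomy, surgery that removes the olfactory bulbs and serves to model Alzheimer's disease of the sporadic kind. From day 14 after surgery the animals received, through the nose and once daily for 21 days, either 4 µg of human recombinant HSP70, a heat shock chaperone, or 6.4 µg of recombinant YB-1, a nucleic acid binding protein. Hippocampus and cortex were each sequenced in 5 libraries per treatment, so the 4 groups were hippocampus with HSP70, hippocampus with YB-1, cortex with HSP70 and cortex with YB-1. No unoperated or vehicle group was used here, so the treatment comparison sets YB-1 against HSP70, and the 2 proteins also differed in dose. The labels name no age and no animal for a library.

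Antibodies are made by B cells and, in far greater amount, by the plasma cells into which B cells mature. Each such cell joins 1 heavy chain variable segment and 1 light chain variable segment, kappa or lambda, to the constant regions, so a cell and its offspring carry a fixed pair of segments, and the heavy chain constant gene in use sets the isotype (IgM, IgG, IgA and others). Healthy brain tissue holds few such cells, which sit mostly in the meninges and the choroid plexus, and the brain's own neurons and glia do not rearrange these genes.

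Of the 158 members, 6 were heavy chain constant genes (of 8 with a fitting symbol), 1 was the kappa constant gene Igkc, 3 were lambda constant genes (of 4), 68 were heavy chain variable segments (of 185), 77 were kappa variable segments (of 160), 2 were lambda variable segments (of 3) and 1 was Jchain, whose product joins IgM and IgA into polymers. Ighd and Ighe, the genes of the IgD and IgE heavy chains, fell below the minimum. Near the minimum, Ighv7-1, Ighv1-61 and Igkv4-58 had 104, 109 and 112 reads and were kept, and Ighv1-63, Ighv1-84 and Ighv1-58 had 86, 81 and 76 reads and were not. The members held 823724 reads. Igkc took 41.4% of them, the heavy chain constant genes 34.6%, the kappa variable segments 16.7%, the heavy chain variable segments 5.13%, Jchain 1.70%, the lambda constant genes 0.294% and the lambda variable segments 0.195%.

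Libraries held 6414215 to 15148078 reads assigned to genes. In the cortex the depth ranges of the treatments did not overlap, with 12283392 to 15148078 reads after HSP70 and 6414215 to 10763465 after YB-1. The labelled tissues matched their markers: 6 of 6 hippocampal marker genes were higher in hippocampus and 6 of 6 cortical marker genes higher in cortex. Same-numbered hippocampal and cortical libraries of a treatment deviated together across 14616 genes in all 10 pairs, and are called matched pairs below. For hippocampal YB-1 replicate 1, cortical YB-1 replicate 5 was more alike than the cortex of its own number. The pairing is inferred from these deviations and is not stated in the labels. Nothing in the labels says that the libraries of a group came from separate animals, so p-values measure the spread between these libraries.

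The IgG genes carried most of the heavy chain signal. Their products differ most in the hinge, the short flexible stretch between the antigen-binding arms and the tail, which the second exon encodes. These exons are shown because they are where the 4 closely related IgG genes differ in length and letters. They lie on the minus strand of chromosome 12, are written from the GENCODE M21 transcripts (GRCm38, the C57BL/6 reference), and have in-frame cysteine codons in capitals.
Ighg2c: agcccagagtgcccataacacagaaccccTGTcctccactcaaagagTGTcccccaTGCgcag
Ighg1: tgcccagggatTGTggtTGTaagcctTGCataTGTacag
Ighg2b: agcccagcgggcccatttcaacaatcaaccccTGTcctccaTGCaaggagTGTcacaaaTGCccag
Ighg3: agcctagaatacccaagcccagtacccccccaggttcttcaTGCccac
The exon has 63 bases and 3 such codons in Ighg2c, 39 and 4 in Ighg1, 66 and 4 in Ighg2b, and 48 and 1 in Ighg3. Some mouse strains carry an allele called IgG2a in place of IgG2c; which of these the NMRI animals carry was not tested.

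The summed level of the 158 genes spanned a 13.1-fold range over the 20 libraries. Levels are CPM, counts scaled to library size with edgeR's TMM factors. In the hippocampus the sums were 4212, 818, 3994, 2301 and 1613 CPM in HSP70 replicates 1 to 5, and 6596, 6173, 2388, 629 and 6062 CPM in YB-1 replicates 1 to 5. In the cortex they were 5115, 729, 6828, 3351 and 2684 CPM after HSP70, and 5232, 3771, 3798, 2337 and 8235 CPM after YB-1. The treatments overlapped in both tissues, and the lowest libraries were HSP70 replicate 2 in both tissues and YB-1 replicate 4 in the hippocampus. Group means were 2588 ± 1481 CPM and 4370 ± 2692 CPM in the hippocampus, and 3741 ± 2332 CPM and 4675 ± 2238 CPM in the cortex, for HSP70 and YB-1 (SD, n = 5 each). In the cortex the difference between treatment means was smaller than either SD, and in the hippocampus it was larger than the SD of the HSP70 libraries and smaller than that of the YB-1 libraries. In bulk tissue, fewer antibody-making cells and less antibody RNA per cell cannot be told apart.

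**Figure D1:**
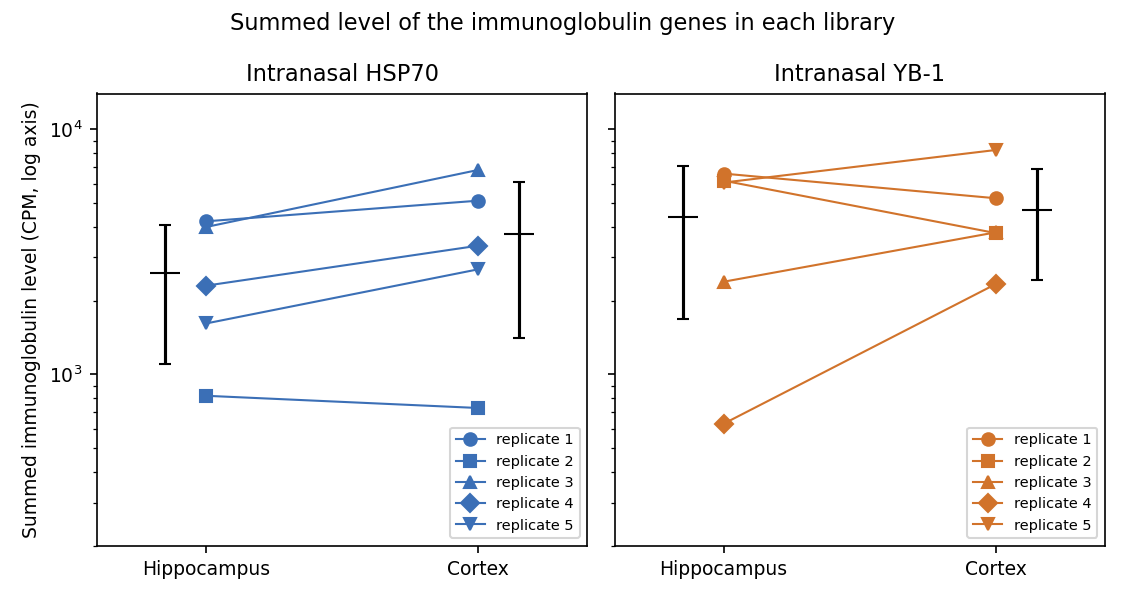
Summed level of the 158 immunoglobulin genes (CPM, log axis) in hippocampus and cortex for each treatment; lines join libraries of the same number, and black bars give the mean ± SD of 5 libraries. HSP70 replicate 2 is low in both tissues (818 and 729 CPM), and YB-1 replicate 4 is low in the hippocampus (629 CPM).

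Light chains came first. Igkc, the constant region of the kappa chain, was at 1646, 333, 1603, 866 and 693 CPM in the hippocampus after HSP70 and at 2545, 2751, 973, 277 and 2393 CPM after YB-1. In the cortex Igkc was at 2242, 281, 3098, 1358 and 1011 CPM after HSP70 and at 2319.8, 1751, 1536, 920.4 and 3179.6 CPM after YB-1. The highest and the lowest hippocampal library were both YB-1 libraries. Those at 2545, 2751 and 2393 CPM lay above every HSP70 library. The YB-1 library at 277 CPM lay below all of them, and that at 973 CPM lay among them. The log2 fold change of Igkc, YB-1 over HSP70, was 0.80 ± 0.65 (SE) for hippocampus and 0.27 ± 0.59 for cortex, with edgeR adjusted p of 1.0 and 0.964.

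The lambda constant genes were far lower. Iglc3 was at 1.05, 0.118, 0.712, 0 and 0.45 CPM in the hippocampus after HSP70 and at 1.71, 1.45, 2.66, 0.541 and 3.07 CPM after YB-1. Its hippocampal and cortical log2 fold changes, 2.02 ± 0.69 and 1.31 ± 0.58, had unadjusted p of 0.0105 and 0.0358 and did not pass adjustment (edgeR adjusted p 1.0 and 0.858). These values rest on 0 to 33 reads per library. Iglc1 and Iglc2, the other lambda constant genes, were at 0 to 18.6 CPM and 0.135 to 10.3 CPM over all libraries, and their hippocampal log2 fold changes were 0.43 ± 0.74 and 1.27 ± 0.72. Kappa made up 98.1% to 99.7% of the light chain constant level per kilobase of transcript, in every library.

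Among the heavy chains, Ighg2c, of the IgG2c class, was at 462, 105, 535, 304 and 136 CPM in the hippocampus after HSP70 and at 1242, 640.4, 340.2, 69.5 and 819.7 CPM after YB-1. The cortical levels were 570.4, 108, 978, 555 and 385 CPM after HSP70 and at 742, 541, 661, 434 and 1345 CPM after YB-1. The groups overlapped, and the log2 fold change was 1.02 ± 0.74 (hippocampus) or 0.51 ± 0.53 (cortex) (edgeR adjusted p 1.0 and 0.918). Ighg1, of the IgG1 class, spread further still. It was at 784, 127, 590.5, 170.0 and 188 CPM in the hippocampus after HSP70 and at 807, 929, 228, 24.3 and 884 CPM after YB-1, where replicate 4 lay below every HSP70 library and 3 others lay above all of them. Its log2 fold change was 0.63 ± 0.90 there and 0.18 ± 0.66 in the cortex.

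The other heavy chain genes did not pass the test either. Ighg2b and Ighg3 had log2 fold changes of 0.70 ± 0.62 and 1.28 ± 1.03 there, and 0.26 ± 0.63 and 0.03 ± 0.86 in the cortex. Ighm, the IgM gene used first by every B cell, had 0.30 ± 0.26 and 0.30 ± 0.20. Igha, of the mucosal antibody IgA, was the heavy chain gene with a value under 0 in both tissues, at -0.19 ± 0.34 and -0.16 ± 0.35. Jchain, at 13.7 to 147 CPM over all libraries, had a hippocampal value of 0.26 ± 0.55 and a cortical one of -0.38 ± 0.56. No constant region gene and not Jchain passed the test in either tissue.

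**Figure D2:**
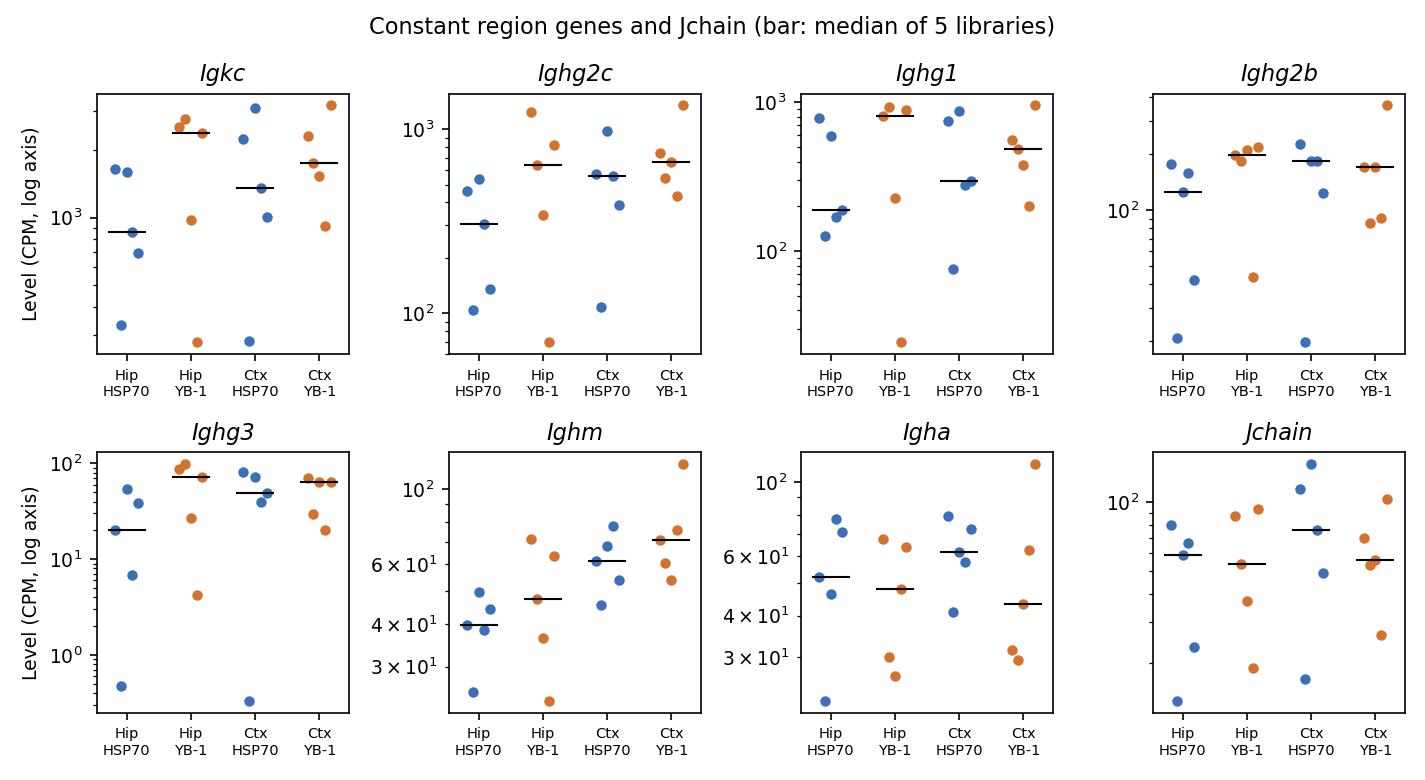
Level (CPM, log axis) of 7 constant region genes and Jchain in each library, by tissue (Hip, hippocampus; Ctx, cortex) and treatment; points are libraries and bars are medians of 5. The treatments overlap in every panel, and HSP70 replicate 2 falls to 0.471 CPM of Ighg3 in the hippocampus and 0.33 CPM in the cortex.

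In the hippocampus 106 of the 158 members had enough reads in enough libraries to be tested. Of these, 0 passed at an adjusted p of 0.05, as did 0% of the 13723 genes tested in either direction. Of these 106, 87 had a log2 fold change above 0 (49.3% of all genes tested did), with a median of 0.65, against -0.003 over all genes. The members are not independent of each other, since 1 cell contributes to several of them at once. At an unadjusted p under 0.05, 3 members were higher (1.41% of all genes) and 0 lower (0.984%); DESeq2 and limma-voom also called 0, with 10 and 13 members higher at that level (1.14% and 3.33% of all genes). No member had groups that did not overlap (0.175% of all genes with YB-1 higher, 0.299% with YB-1 lower). The median moved to 0.38 without YB-1 replicate 5 and to 1.07 without HSP70 replicate 1. Without YB-1 replicate 4, the library with the lowest sum, 25 members were higher at an unadjusted p under 0.05 (2.75% of all genes), 0 were called, and the median was 0.94. With any other library left out, 3 to 10 members were higher at that level. Over all genes this was 115 of 13830 without YB-1 replicate 5 to 299 of 13972 without HSP70 replicate 5. Markers of meningeal fibroblasts ran the other way in the hippocampus: 0 of 11 were above 0, 5 were lower at an unadjusted p under 0.05 and 0 passed, with sums of 1304.9 to 2176 CPM after HSP70 and 742 to 1442 CPM after YB-1. MHC class II genes, expressed by antigen-presenting cells, were above 0 in 6 of 7 cases (median 0.88), and 0 passed. T and NK cell markers were above 0 in 11 of 12 cases (median 0.59) and microglia markers in 9 of 10 (median 0.29), and 0 passed. Red blood cell genes were above 0 in 0 of 4 cases. The part of any of these lists in the immunoglobulin values was not tested.

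The hippocampal members with the smallest p were Igkv4-57-1, Iglc3 and Igkv4-55. Igkv4-57-1, a kappa variable segment, was at 2.77, 6.95, 3.25, 4.45 and 1.05 CPM after HSP70 and at 23.0, 20.3, 3.46, 9.06 and 24.7 CPM after YB-1. All but YB-1 replicate 3 were above the HSP70 libraries, and the log2 fold change was 2.11 ± 0.52 (edgeR adjusted p 1.0, unadjusted 0.0015). Igkv4-55, another kappa segment, was at 1.95 ± 0.67. On the lower side the smallest p belonged to Igkv12-41 (-1.32 ± 0.99), Ighv5-9-1 and Igkv2-109, none under an unadjusted 0.05.

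In the cortex 127 members were tested and 0 passed, as did 0% of the 14114 genes tested in either direction. Of the 127, 94 were above 0 (50.9% of all genes), with a median of 0.39 against 0.005 over all genes. At an unadjusted p under 0.05, 11 members were higher (3.02% of all genes) and 1 was lower (2.47%). That count of 11 was 23 without HSP70 replicate 3 (2.45% of all genes), 6 without HSP70 replicate 4 (386 of 14162 genes) and 4 without YB-1 replicate 5 (2.36%). The median rested on single libraries: it was -0.02 without YB-1 replicate 5, 0.16 without HSP70 replicate 2 and 0.75 without HSP70 replicate 3. DESeq2 and limma-voom each called 1 member, higher after YB-1, where over all genes DESeq2 called 3 higher and 1 lower of 27020 and limma-voom 1 higher and 0 lower. With limma-voom the median was 0.91, and 34 members were higher (4.34% of all genes) and 0 lower at an unadjusted p under 0.05. The treatments also differed in depth here. With libraries thinned to equal depth, 84 of 108 members tested were above 0, with a median of 0.32, against 0.006 over all genes. In that fit 1 member was called, and over all 13026 genes 1 was called higher and 0 lower.

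That member was Igkv12-38, a kappa variable segment. In the cortex it had 4, 0, 15, 2 and 1 reads after HSP70, which is 0.277, 0, 1.0, 0.152 and 0.0725 CPM. After YB-1 it had 65, 22, 28, 12 and 42 reads, which is 5.80, 2.98, 2.82, 2.20 and 3.96 CPM. Every YB-1 library lay above every HSP70 library. The segment passed the filter on low counts mainly through the YB-1 libraries, where it was high, since of the HSP70 libraries only replicate 3 had over 4 reads. That it was tested in the cortex is thus not independent of the direction of the difference. The log2 fold change was 3.47 ± 0.60 (edgeR adjusted p 0.25). The adjusted p was 5.16e-05 with DESeq2, 8.51e-08 in edgeR with no filter on low counts, 0.0209 with limma-voom, and 0.0176 after thinning to equal depth. It was 0.0584 with replicate numbers as a block, and with single libraries left out it ranged from 0.00814 without HSP70 replicate 3 to 0.877 without YB-1 replicate 1, passing in 1 of 10 cases. In the hippocampus Igkv12-38 was at 0.191, 0, 0.407, 0.365 and 0.300 CPM after HSP70 and at 8.12, 6.28, 0.399, 0 and 5.78 CPM after YB-1. Replicates 1, 2 and 5 were thus above all HSP70 libraries, while replicates 3 and 4 were not. Hippocampal reads were 2, 0, 4, 5 and 2 after HSP70 and 76, 52, 3, 0 and 62 after YB-1. With these the segment did not pass the filter on low counts in the hippocampus. In the hippocampal edgeR fit with no filter all 158 members were tested and 0 were called, as were 0 of all 26012 genes. As a share of all variable segment reads it was 0.201% to 0.493% in the cortical YB-1 libraries and 0 to 0.0757% in the cortical HSP70 libraries, so it was a small part of the repertoire in each.

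Igkv12-38 shares no 50-base window with any other immunoglobulin gene considered, unlike its family members Igkv12-41 and Igkv12-44, of whose windows 30.9% and 30.7% recur elsewhere. The last 120 coding bases of these segments, which hold part of a loop that contacts antigen, are shown to let the 3 be told apart; they are on the minus strand of chromosome 6, from GENCODE M21 (GRCm38), with capitals at the 28 positions where they differ. NMRI alleles may differ from this reference.
Igkv12-38: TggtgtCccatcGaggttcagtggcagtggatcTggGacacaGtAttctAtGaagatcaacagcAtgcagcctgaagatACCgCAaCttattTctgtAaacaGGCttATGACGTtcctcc
Igkv12-41: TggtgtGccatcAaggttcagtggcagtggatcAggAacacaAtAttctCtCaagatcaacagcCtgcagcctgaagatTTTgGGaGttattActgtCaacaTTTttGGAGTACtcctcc
Igkv12-44: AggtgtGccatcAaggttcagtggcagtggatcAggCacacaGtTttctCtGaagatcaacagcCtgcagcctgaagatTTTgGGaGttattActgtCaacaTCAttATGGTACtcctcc
Igkv12-38 differs from Igkv12-41 at 26 of these positions and from Igkv12-44 at 23, and over the whole coding stretch is 85.8% and 87.0% identical to them, while the other two are 95.7% identical. Of all 158 members 126 share at least 1 such window with another gene of the set, so a read from 1 of these can be split between relatives or dropped, depending on the counting.

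Igkv5-39 was the other cortical member whose groups did not overlap (0.312% of all genes tested had YB-1 higher without overlap, 0.517% lower). It was at 4.57, 0.826, 4.34, 3.34 and 5.36 CPM after HSP70 and at 14.7, 6.36, 11.8, 5.50 and 20.8 CPM after YB-1. Its log2 fold change was 1.68 ± 0.42, with an unadjusted p of 0.00127 and an edgeR adjusted p of 0.858, and in the hippocampus 1.52 ± 0.80 with overlapping groups. Igkv6-25 was next among the higher members (1.29 ± 0.49), and Igkv4-79 was the member lower at an unadjusted p under 0.05 (-1.44 ± 0.48), at 1.29 to 6.09 CPM after HSP70 and 0.848 to 1.87 CPM after YB-1. Igkv12-41 (-2.08 ± 1.02) and Igkv4-91 (-1.57 ± 1.34) followed on the lower side, with unadjusted p of 0.0733 and 0.271.

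Whether the treatment difference itself differed between hippocampus and cortex was tested in a model of all 4 groups. Of 139 members tested, 0 passed and 0 had an unadjusted p under 0.05 (0% and 0% of all 14616 genes passed, and 0.705% and 0.848% were under 0.05, higher and lower). Of the 139, 87 were above 0 (48.6% of all genes). DESeq2 and limma-voom called 0 as well, with 0 and 1 members at an unadjusted p under 0.05, the latter lower. Over all genes at that level, DESeq2 had 188 higher and 258 lower of 29205, and limma-voom 132 higher and 184 lower of 14616. The smallest p belonged to Igkv4-79 (2.19 ± 1.15) and Ighv5-15 (2.54 ± 1.54) on the higher side and Igkv15-103 (-1.90 ± 1.12) and Ighv5-9-1 (-2.18 ± 1.43) on the lower side. The interaction was 0.52 ± 0.89 for Igkc, 0.49 ± 0.92 for Ighg2c and 0.63 ± 0.81 for Jchain on the log2 scale. The median over the 139 was 0.22, and single libraries decided it: it ranged from -0.05 without cortical HSP70 replicate 3 to 0.65 without hippocampal HSP70 replicate 1, and leaving out any 1 of 13 libraries moved it by over 1.5 times. With matched pairs as a block 0 were called and 6 were higher and 3 lower at an unadjusted p under 0.05 (1.64% and 1.16% of all genes), Jchain among them (0.52 ± 0.23, edgeR adjusted p 0.999).

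Between the tissues, Ighm passed the test. It was at 39.8, 25.3, 49.6, 38.6 and 44.3 CPM in the hippocampus after HSP70 and at 71.1, 47.6, 36.3, 23.8 and 63.4 CPM after YB-1. Cortical levels of Ighm were 61.5, 45.7, 68.0, 78.0 and 54.0 CPM after HSP70 and 70.7, 60.4, 54.0, 75.7 and 118 CPM after YB-1. It was higher in the cortex in 9 of 10 matched pairs, and in the remaining pair, YB-1 replicate 1, the ratio of cortex to hippocampus was 0.994. The log2 difference, hippocampus minus cortex, was -0.64 ± 0.18 (edgeR adjusted p 0.013). Ighv9-1, a heavy segment, was next at -1.01 ± 0.50 (0.196), and the smallest p on the higher side belonged to Igkv4-79 (0.72 ± 0.57) and Igkv12-98 (1.17 ± 0.92).

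Of the 139 members tested between tissues, 1 was lower in the hippocampus and 0 higher (7.31% and 8.55% of all 14616 genes tested). Of them 37 were above 0 (50.1% of all genes) and the median was -0.27. It was -0.04 without cortical YB-1 replicate 5, -0.14 without hippocampal YB-1 replicate 4, -0.15 without cortical HSP70 replicate 3, -0.41 without cortical HSP70 replicate 2 and -0.42 without hippocampal YB-1 replicate 5. With matched pairs as a block, 9 members were called, each lower in the hippocampus, which is 6.47% of the members tested. In that fit 9.78% of all genes were lower and 9.98% higher, so the members' share was below the share over all genes. The 9 were Ighm (-0.66 ± 0.12, edgeR adjusted p 0.000357), Jchain (-0.43 ± 0.11, 0.00953), Iglc1 (-0.95 ± 0.27, 0.0156), the heavy segments Ighv9-3 and Ighv1-80, and the kappa segments Igkv4-62, Igkv3-12, Igkv10-94 and Igkv1-133. Igkc, at -0.43 ± 0.19 (0.142), and Ighg2c, at -0.67 ± 0.31 (0.18), did not pass in that fit. For Igkc the cortex was higher in 7 of 10 pairs, with a ratio of cortex to hippocampus from 0.637 to 3.32. Other immune lists ran the same way as the members. Above 0 were 0 of 13 T and NK cell markers tested, 0 of 10 B cell markers, 0 of 10 microglia markers and 0 of 7 MHC class II genes. Of these 2, 1, 1 and 0 were called lower. Of 14 plasma cell markers 6 were above 0. Choroid plexus markers, by contrast, were higher in hippocampus for 10 of 10 genes, and 4 of 11 meningeal fibroblast markers were lower and 1 higher there. The part of any of these lists in the tissue difference was not tested.

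**Figure D3:**
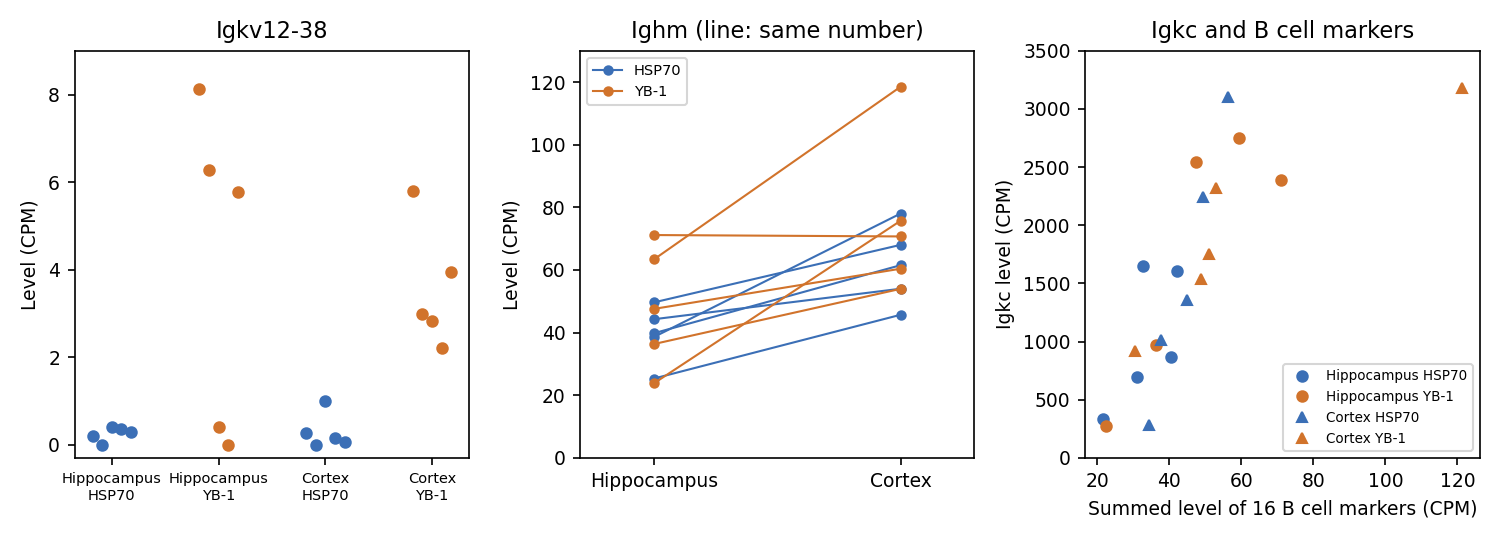
Left, Igkv12-38 (CPM) by group; middle, Ighm (CPM) in matched hippocampal and cortical libraries; right, Igkc (CPM) against the summed level of 16 B cell markers (CPM), each point a library. Cortical Igkv12-38 is at or under 1.0 CPM after HSP70 and at or over 2.20 CPM after YB-1, and Ighm is higher in the cortex in 9 of 10 pairs.

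The isotype makeup was compared as shares of the heavy chain constant level per kilobase of transcript, as a description. The 4 IgG genes together took 68.3% to 96.6%. Ighg2c was the highest heavy chain gene in 13 libraries and Ighg1 in 7, of which 4 were hippocampal HSP70 libraries, 2 hippocampal YB-1 libraries and 1 a cortical HSP70 library. In the cortex Ighg2c took 32.2%, 38.5%, 43.4%, 47.0% and 39.4% after HSP70 and 45.0%, 43.9%, 48.2%, 49.7% and 45.4% after YB-1. These ranges overlapped through HSP70 replicate 4.

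Libraries with little immunoglobulin RNA had other proportions. In hippocampal YB-1 replicate 4 Igha took 23.2% and Ighm 8.49%, and in HSP70 replicate 2 they took 7.55% and 6.32% in the hippocampus and 14.7% and 12.1% in the cortex. In the richest library, cortical YB-1 replicate 5, they took 3.87% and 2.98%. Ighg3 took 0.162% and 0.120% in the hippocampus and cortex of HSP70 replicate 2, against 0.926% to 7.66% in the other libraries. Igha itself spanned 22.3 to 113 CPM and Ighm 23.8 to 118 CPM over the 20 libraries, while Ighg1 spanned 24.3 to 955 CPM, so the spread between libraries was wider for IgG1 than for IgM and IgA.

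**Figure D4:**
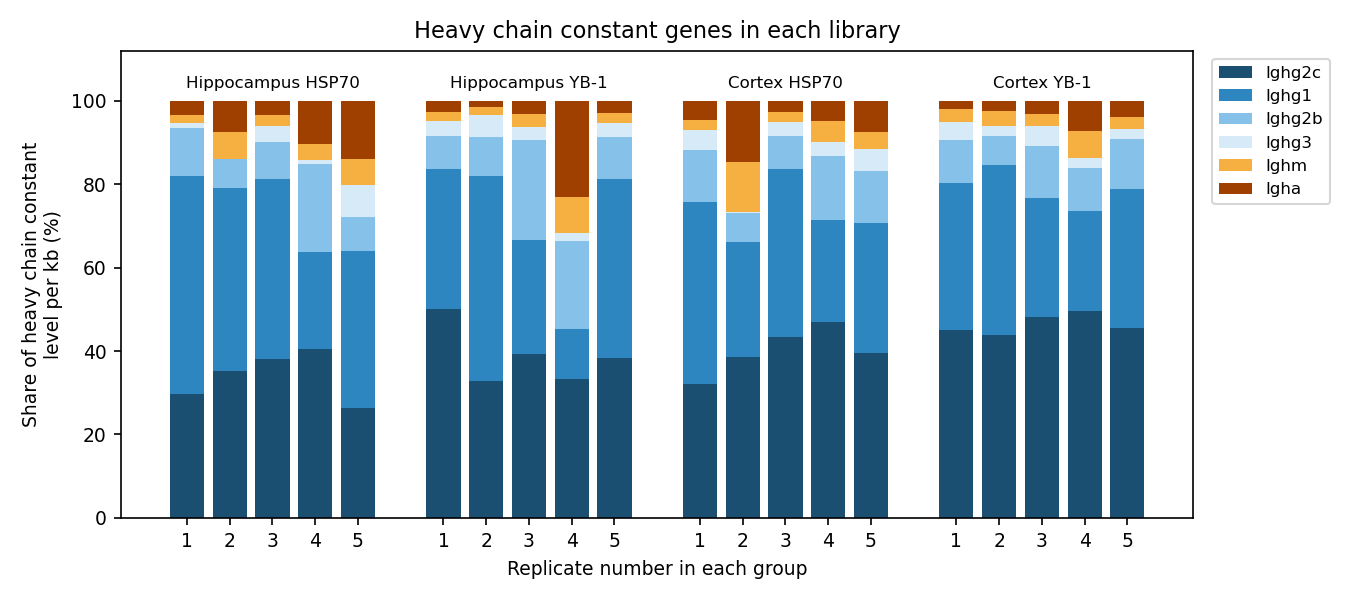
Share of each heavy chain constant gene in the summed heavy chain constant level per kilobase (%), 1 bar per library. The blue IgG shades take 68.3% to 96.6%, and hippocampal YB-1 replicate 4 has the largest Igha share, 23.2%.

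Variable segments gave a second readout, the repertoire. Libraries had 864 to 20947 variable segment reads, over 101 to 145 of the 147 member segments, and 54 to 76 segments made up 90% of the reads. Igkv1-135, the kappa segment with the most reads in all, was the top segment in 7 libraries, and spanned 1.18 to 102 CPM. Igkv1-110 and Igkv10-96 followed it among kappa segments, at 3.06 to 114 CPM and 3.80 to 70.4 CPM. Ighv1-82 led the heavy segments in total, and ranged from 0.118 CPM in hippocampal HSP70 replicate 2 to 72.2 CPM in hippocampal YB-1 replicate 1. Iglv1 led the lambda segments, at 0.942 to 17.2 CPM. All 12 segments that were ever the top one of a library were kappa segments.

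In a few libraries the top segment took a much larger share than in the matched tissue. Igkv12-41 took 13.9% of the variable segment reads of hippocampal HSP70 replicate 2 (199 reads) and 0.485% in the cortex of the same number (8 reads), where Igkv3-10 took 17.6% (290 reads) against 1.95% in the hippocampus, with a median of 1.31% over the other libraries. Igkv15-103 took 14.9% in hippocampal HSP70 replicate 5 (374 reads) and 1.07% in its cortex (94 reads), where Igkv17-127 took 8.93% (787 reads) against 0.280% (7 reads). In hippocampal YB-1 replicate 1 Igkv3-4 took 9.64% (1336 reads), against 3.29% in its cortex and 0.545% to 3.85% in the other libraries. Over the 20 libraries the top segment took 5.16% to 17.6%.

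Segment usage was then compared between tissues by the cosine of the segments' shares, which is 1 for identical usage. For 8 of 10 hippocampal libraries the most alike cortical library was the one with the same treatment and number, and for 7 of 10 seen from the cortex. Matched pairs had a median cosine of 0.805 (0.329 to 0.895), and the 90 other pairs had a median of 0.674 (0.314 to 0.846). The exceptions were HSP70 replicates 2 and 5, at 0.329 and 0.359. Their tissues had different top segments, as did 7 of the 10 matched pairs. They had 1435 and 1649 variable segment reads, and 2502 and 8811, in hippocampus and cortex. YB-1 replicate 4, with 864 hippocampal reads, the fewest of all, still had 0.787 with its own cortex. The cosine is a description; all libraries share the common, widely used segments, and no test was made.

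**Figure D5:**
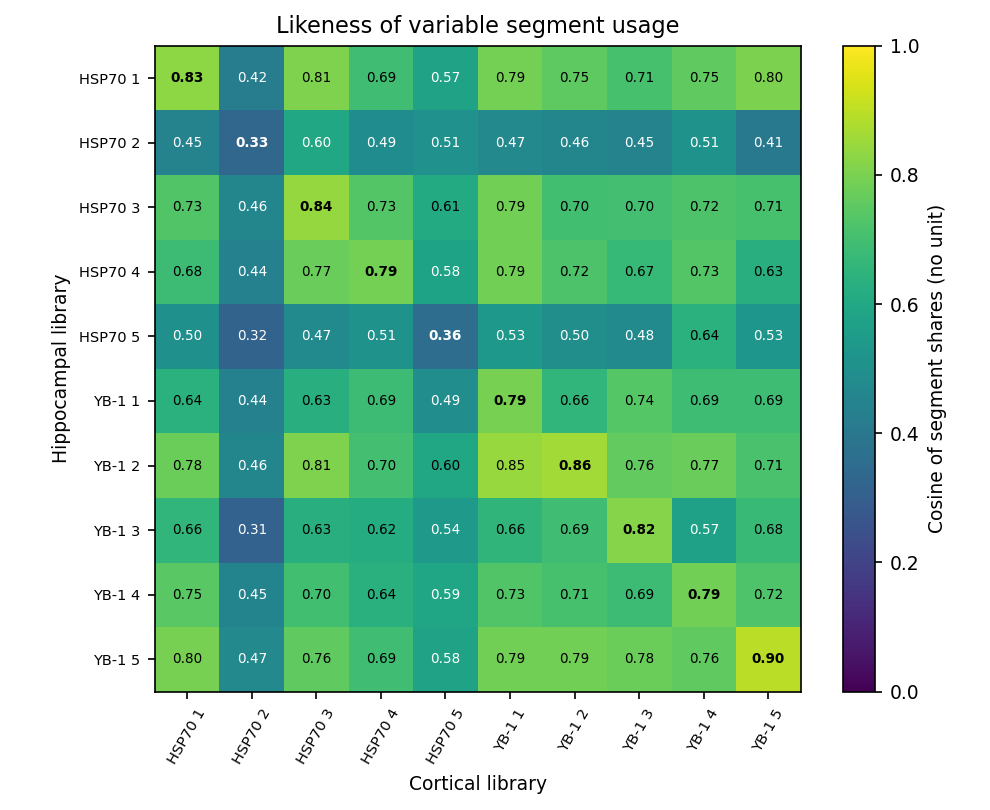
Cosine (no unit) of variable segment shares between each hippocampal library (rows) and each cortical library (columns), with matched pairs in bold on the diagonal. The diagonal is the highest value of its row for 8 of 10 hippocampal libraries; HSP70 2 (0.33) and HSP70 5 (0.36) are the exceptions.

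The level in 1 tissue went with the level in the other for several genes. Over the 10 matched pairs, Igkc had a Pearson r of 0.74 and a Spearman rho of 0.81 (permutation p 0.0158 and 0.00728, adjusted 0.0386 and 0.033 over 22 coefficients), and r was 0.94 without the 2 hippocampal libraries farthest from the median. Ighg1 had 0.80 and 0.82 (permutation p 0.00924 and 0.00561, adjusted 0.033 and 0.033; r 0.85 without the 2 farthest). For Jchain r was 0.71 and rho 0.81 (adjusted permutation p 0.041 and 0.033). Its r on CPM depended on the 2 farthest libraries, hippocampal HSP70 replicate 2 and YB-1 replicate 4, and was 0.48 without them. On log2 CPM its r was 0.87 over all 10 pairs (permutation p 0.00066). Ighg2b passed for r (0.69, adjusted permutation p 0.0414) and not for rho (0.55, 0.154), and its r was 0.54 without its 2 farthest. Iglc2 (r 0.77) and Iglc3 (r 0.71) also passed, and Ighg2c passed for rho only (r 0.63, rho 0.78). Ighm, Igha, Ighg3 and Iglc1 did not, with r of 0.50, 0.45, 0.38 and 0.45. Each treatment has 5 pairs, too few for a coefficient within it; with treatment means subtracted Igkc had r 0.75, Ighg1 0.80, Jchain 0.79 and Iglc3 0.44 (permutation p 0.0144, 0.00619, 0.0069 and 0.201).

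Genes of the cells that carry or respond to antibodies were set beside the members. B cell markers were low: Cd79b, a part of the B cell receptor, was at 1.49 to 18.6 CPM, and Ms4a1, which encodes CD20, at 0 to 3.67 CPM. The summed level of the 16 B cell markers was 21.7 to 42.3 CPM in the hippocampus after HSP70 and 22.4 to 70.9 CPM after YB-1, and in the cortex 34.4 to 56.4 CPM and 30.6 to 121 CPM. Cd37, which other leukocytes also express, made up a large part of these sums, at 11.9 to 43.3 CPM. Between treatments 0 of 6 B cell markers tested passed in the hippocampus and 0 of 9 in cortex, with 6 and 8 of them above 0 (49.3% and 50.9% of all genes tested). Between tissues, 1 of 10 tested was lower in the hippocampus, Bank1 (-0.91 ± 0.29, edgeR adjusted p 0.0343), a B cell signalling adaptor, and 0 were higher. Over all genes tested 7.31% were lower and 8.55% higher, so 1 of 10 was near the share over all genes.

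Igkc went with the B cell list across libraries. Pearson r with its sum was 0.86 over the 10 hippocampal libraries and 0.75 over the 10 cortical ones (rho 0.87 and 0.98, permutation p 0.00094 and 0.00084, adjusted 0.00752 and 0.00752 over 56 coefficients), and r was 0.83 and 0.94 without the 2 libraries farthest from the median. Several other lists did so too. MHC class II genes, which present antigen, had r 0.88 and 0.88, T and NK cell markers 0.74 and 0.84, microglia markers 0.83 and 0.77, and plasma cell survival and homing factors such as Cxcl12 and Cxcl13 0.82 and 0.76 (adjusted permutation p 0.00964 and 0.00752, 0.0244 and 0.00752, 0.0188 and 0.0163, 0.0188 and 0.0103). Without the 2 farthest libraries r fell to 0.64 for the microglia list in the cortex and to 0.68 for the T and NK cell list in the hippocampus (permutation p 0.0907 and 0.0657). Fc receptors had r 0.76 and 0.65, and markers of border and other macrophages and of dendritic cells 0.76 and 0.74 (adjusted permutation p 0.0244 and 0.0852, 0.0383 and 0.0203), and without the 2 farthest none of these 4 passed. The latter list was led by Itgax, with 2528 reads over all libraries, against 439 for Mrc1. The 10 libraries of a tissue pool both treatments, and treatment means were not subtracted for any list. A difference between treatments can thus enter these coefficients. Which of these cells or factors bears on the immunoglobulin level was not tested.

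Between treatments 0 of 10 plasma cell markers tested passed in hippocampus and 0 of 13 in cortex, with 9 and 11 above 0 (49.3% and 50.9% of all genes tested). The sum of all 15 went with Igkc at r 0.66 in the hippocampus and 0.43 in the cortex (adjusted permutation p 0.0852 and 0.327). Their sum was led by Xbp1, Txndc5 and Pim2, which many cell types express. Choroid plexus markers, at 11.2 to 1720.2 CPM, had r of -0.21 and -0.16, meningeal fibroblast markers -0.44 and -0.09, and red blood cell genes -0.18 and -0.54, none of which passed. Hippocampal YB-1 replicate 4, the library with the least immunoglobulin RNA, had 739 CPM of choroid plexus markers and 1442 CPM of meningeal markers. The choroid plexus sum was led by Ttr and the meningeal sum by Ptgds, with 39670 and 295553 reads over all libraries. These sums thus rest largely on a single gene each. The part of choroid plexus or meninges in the immunoglobulin values was not tested.

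Receptors and transporters of antibody were tested in the same fits. Of 7 tested of 8, 0 passed between treatments in either tissue and 7 were above 0 in both, with medians of 0.44 (hippocampus) and 0.49 (cortex). Over all genes tested 49.3% and 50.9% were above 0. Fcgr3, an activating receptor for IgG on microglia and macrophages, was at 0.44 ± 0.18 and 0.58 ± 0.19 (unadjusted p 0.0284 and 0.00638). Fcgrt, the receptor that recycles IgG, had 0.04 ± 0.17 and 0.03 ± 0.16. Pigr, which carries polymeric IgA across epithelia, had 7 reads over all libraries and was named for that count. Of the homing and survival factors, Cxcl13, a chemokine that draws B cells, had 1.16 ± 0.70 and 0.74 ± 0.76, at 4.24 to 123 CPM.

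Genes of antibody gene rearrangement had few reads beside the members. Over all 20 libraries Rag1 and Rag2, which cut the segments in developing lymphocytes, had 8 and 2 reads and Dntt, which adds bases where segments join, had 19; these were named after their counts were seen. Ung, a repair enzyme that most cells use, was the 1 gene of that list with enough reads for the test, at -0.02 ± 0.42 (hippocampus) and -0.26 ± 0.38 (cortex).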

How the data were processed

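Poly(A) RNA was sequenced single-end from hippocampus and cortex, with a directional kit, per the labels' protocols. The authors deposited 1 file per library of raw read counts, whole numbers, keyed by Ensembl identifier. Trimmomatic, STAR, featureCounts and GRCm39 were used, per the submitters' processing notes; no version, annotation release or strand setting is given in the sources used here, so reads of antisense or overlapping genes cannot be told apart. The deposited multimapping entry is 0 in every library. The 12 summary entries name no gene and entered neither library sizes nor tests; of these, reads outside genes made up 2.45% to 4.58% and ambiguous reads 4.12% to 4.58%. Symbols came from GENCODE M21 by Ensembl identifier (99.4% matched), an annotation of the earlier build, so no coordinates are given.

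Counts were tested with edgeR 4.0.16 (R 4.3.3): TMM, filterByExpr, robust quasi-likelihood fits, two-sided, Benjamini-Hochberg adjustment over all genes tested, threshold 0.05. Treatments were compared within each tissue, and the interaction and the tissues in 1 model of all 4 groups. DESeq2 1.42.0, limma 3.58.1 voom, other scalings and filters, thinning to equal depth, blocks and leaving out each library were alternatives. The script was tested on simulated data. For treatment in hippocampus and cortex it recovered 11.9% and 4.48% of 1.5-fold changes. It recovered 50.7% of 2-fold changes in each, and 87.9% and 92.4% of 4-fold changes. For the interaction it recovered 23.9% of 2-fold changes, and between tissues 79.1%. A change of 2-fold or less can thus be missed. Correlations use permutation tests of 100000 draws, two-sided. Levels per kilobase use the shortest annotated transcript.

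The members and the gene lists were chosen with earlier results of these data known. Variable segments and list genes named in the text are those with the highest sums, the smallest p in each direction, the top segment of a library, or the 3 highest tested genes of a list; others are named for their low counts or because a stated count needed them. Same-numbered libraries of the 2 tissues correlated in their deviations from group means at 0.198 to 0.624 in all 10 pairs. The tissues were paired by number on this ground. Hippocampal YB-1 replicate 1 was the exception in rank: its own cortex had 0.207, and cortical YB-1 replicate 5 was more alike. Between treatments, same numbers had -0.283 to 0.496 in hippocampus and -0.135 to 0.167 in cortex. The 0.496 was replicate 1, which lay above most tissue pairs, so such values do not prove a pairing. Chi-square per degree of freedom between libraries of 1 group was at least 7.69, so none looked like a repeat of another.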

Additional observations from a re-analysis of the deposited data

Results flagged for a closer look

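Among 208 sets of 5 libraries examined, 26 (12.5%) held a library far from the other 4; chance flags about 1 in 20, and variable segment levels are skewed. Each flagged value is a library at the edge of its own group. Hippocampal YB-1 replicate 4 had 5: Ighg2b at 43.7 CPM, an Ighm share of 8.49%, an Igha share of 23.2% and an IgG share of 68.3% of the heavy chain constant level, and a ratio of Jchain to Ighm plus Igha of 0.229. Cortical YB-1 replicate 4 had an Ighm share of 6.44% and an IgG share of 86.3%. Cortical YB-1 replicate 5 also had 5: Iglv3 at 4.99 CPM, Igkv4-57-1 at 35.0 CPM, Ighv5-9-1 at 7.16 CPM, Ighv5-15 at 1.98 CPM and Igkv12-98 at 22.9 CPM.

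Cortical HSP70 replicate 2 had Ighv9-3 at 0.578 CPM, an Ighm share of 12.1% and a top segment share of 17.6%. Cortical HSP70 replicate 3 had Igkv12-38 at 1.0 CPM and Igkv12-98 at 8.28 CPM, and the hippocampal library of the same number had Igkv12-98 at 11.3 CPM and Igkv5-39 at 8.85 CPM. Cortical HSP70 replicate 5 had Igkv4-91 at 24.1 CPM, and cortical YB-1 replicate 1 had Igkv4-79 at 1.87 CPM. In the hippocampus, HSP70 replicate 1 had Igkv4-79 at 8.40 CPM, HSP70 replicate 4 a ratio of Ighg2c to Ighg1 of 1.73, HSP70 replicate 5 a kappa share of 99.7%, YB-1 replicate 1 Igkv3-4 at 142.7 CPM and YB-1 replicate 2 Ighv5-15 at 12.6 CPM.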

How the results depend on the processing

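In the cortex the count of members called was 1, in place of 0, with no filter on low counts, with DESeq2, with limma-voom and after thinning to equal depth, and 0 to 1 when single libraries were left out (1 without HSP70 replicate 3). Over all genes, 6 were called higher and 3 lower of 27039 with no filter. After thinning 1 was higher and 0 lower of 13026, and without HSP70 replicate 3 1 was higher and 0 lower of 14181. The member called was Igkv12-38 each time. Between tissues the count was 9 with the replicate block (matched pairs), in place of 1, while the share of all genes called lower went from 7.31% to 9.78%, and 1 to 2 when single libraries were left out (2 without hippocampal HSP70 replicate 1 or YB-1 replicate 1). Replicate numbers as a block in the treatment fits, where numbers were not taken to pair the libraries, left 0 members called in both tissues, with medians of 0.60 and 0.55. The pair correlation between tissues was 0.71 for Ighg2c and 0.82 for Ighg3 on log2 CPM, which then passed without adjustment; it was 0.54 for Ighg2b and 0.48 for Jchain without the 2 farthest libraries and 0.44 for Iglc3 with treatment means subtracted, which then did not. With limma-voom the sign turned for Igha (0.00081) and Igkv2-109 (0.43) in the hippocampus, Jchain (0.045) and Igkv4-91 (0.56) in the cortex, and Iglc3 (0.15) between tissues. Leaving out single libraries turned the sign, with ranges of -0.59 to 0.00069 for Igha, -0.16 to 0.58 for Ighg1, -0.19 to 0.46 for Ighg2b, -0.29 to 0.29 for Ighg3, -2.13 to 0.66 for Igkv4-91 and -0.18 to 0.86 for Iglc2 in the cortex, -0.084 to 0.78 for Iglc1 in the hippocampus, and -0.31 to 0.12 for Ighg1 and -0.38 to 0.17 for Iglc3 between tissues; none of these differences was called. The cause was not tested. Segments with few reads limit what can be seen: the filter on low counts left 52 members in the hippocampus and 31 in the cortex out of the edgeR tests reported; with no filter all 158 were tested, with 0 and 1 called.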
